A study of Mus musculus with 3 samples.

Results

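Peaks that lay in the interior of very long 3′UTRs were examined in Ago2 HITS‐clip libraries from N2A cells. A peak was taken when its midpoint fell on the strand of a protein-coding gene, inside the longest annotated 3′UTR of that gene, when this 3′UTR had at least 5000 nt, and when the midpoint was more than 500 nt from both the stop codon and the annotated 3′ end. In all, 19391 of 2039384 deposited peaks met these conditions, out of 126980 peaks in any 3′UTR. The 3′UTRs came from 796 of 21028 genes with an annotated 3′UTR (GENCODE M21 on GRCm38, which is mm10), and their interiors spanned 4.85 Mb, or 15.7% of all 3′UTR nucleotides. Their median length was 6220 nt, 26 of them were spliced, and no interior nucleotide was shared between them on the same strand.

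N2A is a mouse neuroblastoma line. HITS‐clip crosslinks RNA to protein with UV light, pulls down the protein and sequences the attached RNA. The 3 libraries form a single group of untreated cells, which were exposed once to 400 and then 2 times to 200 mJ/cm2 and precipitated with an antibody against Ago2. No second condition, input library or mock precipitation was analysed here. Nothing in the sample descriptions says that the libraries came from separate cultures. A p-value therefore refers only to these libraries, and the differences between them may be technical. Transcript levels were not measured, so more peaks in a gene and more copies of its mRNA cannot be told apart.

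Ago2 holds a miRNA and is guided by it to mRNAs. Most pairing runs through the seed, the bases near the 5′ end of the miRNA, and most well-studied target sites lie in 3′UTRs. Target sites in long 3′UTRs tend to work better near the stop codon or near the poly(A) tail than in the middle. Many brain transcripts carry very long 3′UTRs, and cleavage at an earlier polyadenylation signal (usually AATAAA or ATTAAA) removes the downstream part with every site in it.

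The sites below are shown because each lay in a stretch of an interior that was covered by a peak in all 3 libraries. Capitals mark the match to miRNA positions 2 to 8 followed by an A, the longest canonical kind of seed match (an 8mer site), within 30 nt of reference sequence on the mRNA strand, 5′ to 3′, in GRCm38. Each is named by 1 miRNA that stands for its family (those with the same seed, such as let-7), and they belong to the 8 families whose seed matches had the highest mean ratio of density in covered over uncovered interior sequence, described further on.
Ago2, let-7: acaatgtggatCTACCTCAgttaaacagtt
Sesn3, let-7: cttgctgtcctCTACCTCAtccctaaagag
Ago2, miR-148: ctcctgtaagtTGCACTGAtctctcaacag
Tnpo1, miR-148: ataacagccatTGCACTGAagtgtgagctg
Sv2c, miR-130: tcaacaggaaaTTGCACTAagatattgatc
Crebrf, miR-19: ctaagtaaagtTTTGCACAgcttacatgat
Itga4, miR-17: ttataaatatcGCACTTTAgctgatacaca
Myo5a, miR-92: catttaaatatGTGCAATAttattaatgag
Slc5a3, miR-16: tactttcctagTGCTGCTAgatatataaat
Uhmk1, miR-101: tttctaaaggaGTACTGTAggacttaatat

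In Ago2, the let-7 site lies on the minus strand at chr15:73097982-73097989, 8918 nt after the stop codon, and the miR-148 site at chr15:73102582-73102589, 4318 nt after it. Ago2 codes for the precipitated protein itself. The site in Sesn3, which codes for a stress-induced inhibitor of mTORC1 signalling, starts 4567 nt after the stop codon at chr9:14330274 on the plus strand. The site in Slc5a3, the sodium/myo-inositol cotransporter, starts 5198 nt after the stop codon at chr16:92084412 on the plus strand. Such sites were few, with 5 covered stretches holding an 8mer site for let-7, 4 for miR-101 and 3 each for miR-19, miR-17 and miR-16. No expected number was computed for 8mer sites. For the match to positions 2 to 8 alone, windows of the same lengths in the same interiors gave one. It was 8 stretches against 4.81 for let-7, 8 against 6.37 for miR-101 and 10 against 7.71 for miR-17. For miR-19 it was 5 against 4.94, and for miR-16 it was 11 against 15.2. A match is a description of the letters and does not show which miRNA was bound.

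The mature miRNAs of the same 8 families are given with the seed in capitals. No 2 of them share a seed.
miR-130a-3p: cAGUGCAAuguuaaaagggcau
miR-148a-3p: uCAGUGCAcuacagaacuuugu
miR-19b-3p: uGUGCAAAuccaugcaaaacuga
let-7a-5p: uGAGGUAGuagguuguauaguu
miR-17-5p: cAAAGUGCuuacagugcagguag
miR-92a-3p: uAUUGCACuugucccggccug
miR-16-5p: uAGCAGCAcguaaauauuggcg
miR-101a-3p: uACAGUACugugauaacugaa

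Replicate 1 had 2904 interior peaks, replicate 2 had 8409 and replicate 3 had 8078. These were 16.8% (Wilson 95% interval 16.2 to 17.3), 15.3% (15.0 to 15.6) and 14.8% (14.5 to 15.1) of the 3′UTR peaks of each library, against the 15.7% of 3′UTR nucleotides that lie in such interiors. Of all peaks of a library they were 0.408%, 1.69% and 0.973%. The 3 libraries therefore placed near-equal shares of their 3′UTR peaks in the interiors, while replicate 1 stood apart with the fewest 3′UTR peaks, 17318, although its 711377 peaks in all exceeded the 498071 of replicate 2. The intervals cover counting error only.

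Replicate 1 also had narrower interior peaks, of which 38.2% were at most 85 nt wide, against 19.6% in replicate 2 and 18.8% in replicate 3. The median widths were 89, 96 and 97 nt. A few peaks were very wide, with 0.792%, 0.321% and 0.186% over 1000 nt. The peaks covered 6.79% of the interior nucleotides in replicate 1, 17.1% in replicate 2 and 16.4% in replicate 3, so a position had to be covered in replicate 1, the sparsest library, to be shared by all of them.

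As a check of the cell line, 7 of 14 neuroblast and neuron markers had peaks in their 3′UTR in each of the 3 libraries (among them Mycn, Hand2, Gata3, Stmn2, Elavl4 and Chgb), against a background of 22.2% of all genes with a 3′UTR. Th, Nefl and Nefm were among those with none in any library. Among blood and myeloid markers it was 1 of 8, Ptprc, and among hepatocyte and muscle markers it was 0 of 4 each. The summed peaks of the neuroblast and neuron list were 20, 58 and 66, and those of the blood list 2, 3 and 5. Whether other cells added to the peaks described here was not tested.

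Interior peaks followed the strand of the mRNA. On the opposite strand of the same interiors there were 658 peaks in replicate 1, 376 in replicate 2 and 575 in replicate 3, or 0.136, 0.0775 and 0.118 per kb. These counts include peaks of genes that overlap an interior on that strand. On the mRNA strand the density was 0.598, 1.73 and 1.66 per kb, which is 4.41, 22.4 and 14.0 times the opposite strand. The log2 ratio was 3.48 ± 1.21 (SD, n = 3) and was above 0 in each library, with replicate 1 far below the others. The exact sign-flip permutation test (two-sided) gave p = 0.25, which is the smallest value that 3 libraries allow. It is reached whenever the 3 libraries share a sign, whatever their spread. The same limit holds for every such test below.

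Ago2 peaks were less dense in the interior than just after the stop codon of the same 3′UTRs. The first 500 nt held 0.784 peaks per kb in replicate 1, 2.56 in replicate 2 and 2.5 in replicate 3. The interior was at 0.701 times that density, with log2 ratios of −0.39, −0.56 and −0.59 and a mean of −0.51 ± 0.11 (SD, n = 3, exact p = 0.25). All libraries lay on the same side, and the shift was larger than the spread between them.

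The last 500 nt before the annotated end held 0.673, 1.98 and 1.73 peaks per kb. The interior was at 0.907 times that density, with log2 ratios of −0.17, −0.19 and −0.06 and a mean of −0.14 ± 0.07 (SD, n = 3, exact p = 0.25). The difference had one sign in the 3 libraries but was small, and in replicate 3 it was close to 0.

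Against the interiors of 4584 genes with 3′UTRs of 2000 to under 5000 nt, no difference beyond the spread was seen. Those held 0.576, 1.88 and 1.79 peaks per kb. The log2 ratios of long over mid-length interiors were 0.05, −0.12 and −0.11, with a mean of −0.06 ± 0.1 (SD, n = 3, exact p = 0.5). The libraries thus did not share a sign. The long side includes 119 olfactory and vomeronasal receptor genes, whose 767 kb held only 66, 34 and 40 peaks. The comparison without such genes was not made.

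Within the interior the density fell with distance from the stop codon. When each interior was divided into 5 equal stretches, replicate 1 had 0.728, 0.669, 0.565, 0.56 and 0.468 peaks per kb from the first to the last. Replicate 2 had 2.25, 1.88, 1.54, 1.47 and 1.52, and replicate 3 had 2.16, 1.82, 1.53, 1.45 and 1.35. Most of the fall lay between the first and the middle stretch, and the opposite strand showed no such fall (0.126 to 0.163 per kb in replicate 1 from the first stretch to the last).

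The last stretch was at 0.647 times the density of the first, with log2 ratios of −0.64, −0.57 and −0.68 and a mean of −0.63 ± 0.06 (SD, n = 3, exact p = 0.25). This comparison was chosen after seeing the data. Hosts without an annotated end inside the interior had the fall as well, from 2.01 to 1.46 per kb in replicate 2 and from 1.96 to 1.3 in replicate 3. Interiors of mid-length 3′UTRs (2000 to under 5000 nt) fell too, from 0.665 to 0.514, from 2.16 to 1.65 and from 2.03 to 1.61 per kb.

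**Figure D1:**
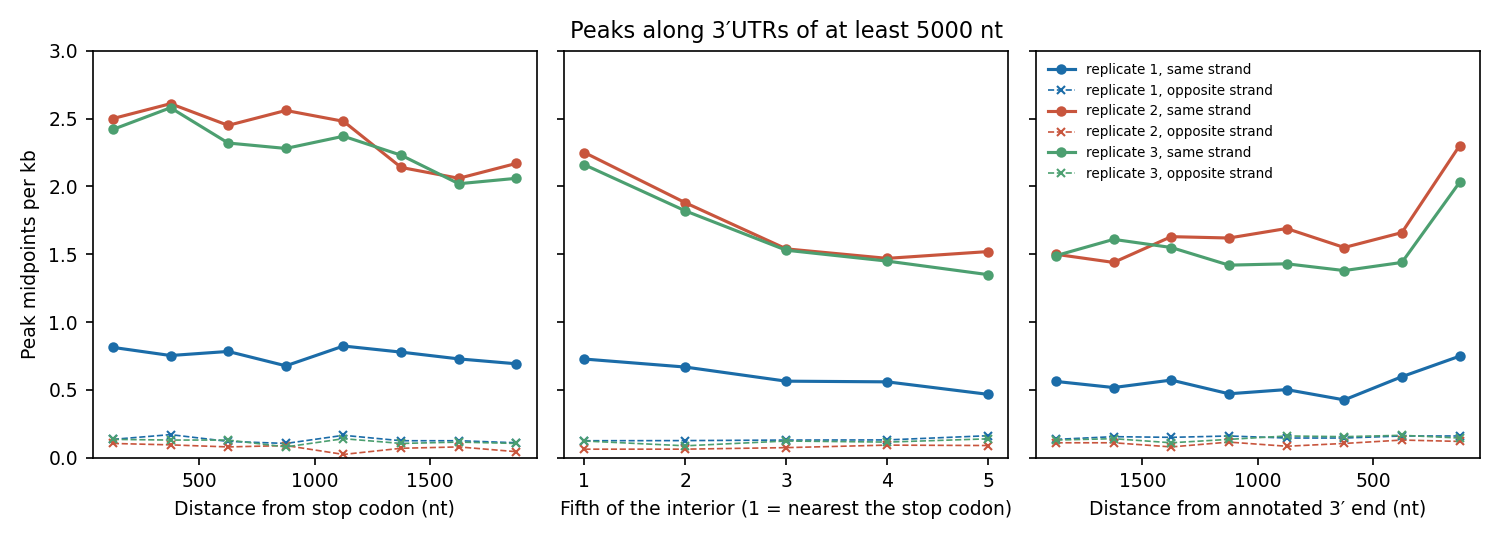
Peak midpoints per kb (vertical axis) along 3′UTRs of at least 5000 nt, by distance in nt from the stop codon (left), by equal stretches of the interior (middle) and by distance in nt from the annotated 3′ end (right), for the mRNA strand (points, solid lines) and the opposite strand (crosses, dashed lines) in each library. Replicates 2 and 3 fall from 2.25 and 2.16 in the first stretch to 1.52 and 1.35 in the last, and rise to 2.3 and 2.03 in the last 250 nt before the annotated end.

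The values on both sides of the limits used were as follows. Between 400 and 500 nt from an end the density was 0.641, 2.06 and 1.95 per kb, and between 500 and 600 nt it was 0.54, 2.07 and 1.83. Interiors of 3′UTRs of 4500 to 5000 nt had 0.578, 1.71 and 1.53 per kb, and those of 5000 to 5500 nt had 0.631, 2.06 and 2.06. The density was thus higher just above the length limit than just below it in each library, while at the 500 nt margin the libraries did not share a direction.

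A gene can have other transcripts that end earlier, inside what is counted here as interior. Such internal annotated ends were found in 269 of the 796 genes. Within 500 nt upstream of them the libraries had 0.933, 3.04 and 2.87 peaks per kb, against 0.646, 1.91 and 1.76 in the rest of the same interiors. The density was 1.55 times higher upstream of the internal ends, with log2 ratios of 0.53, 0.67 and 0.71 and a mean of 0.64 ± 0.09 (SD, n = 3, exact p = 0.25). All libraries were on the same side and far closer to each other than to 0. The position of these ends along the interior, in which density fell with distance from the stop codon, was not taken into account.

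To find positions seen in every library, stretches of at least 8 nt covered by peaks of all 3 libraries on the mRNA strand were taken and are called common regions. The interiors held 1174 of the 7772 common regions in all 3′UTRs, with a median length of 73 nt and a range of 8 to 440 nt. They lay in 262 of the 796 genes (32.9%), while 21.2% of the genes with mid-length 3′UTRs and 14.2% of all genes with a 3′UTR (counted over the whole 3′UTR) had one. A longer interior has more places for one, and per Mb there were 242 in the long and 261 in the mid-length interiors. The long interiors include those of the 119 receptor genes, which held no common region. Of the genes with long 3′UTRs, 451 had an interior peak in each library and 77 had none in any.

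Recurrence between libraries was like that of other 3′UTR peaks. An interior peak was overlapped (at least 1 nt) in both other libraries in 45.1% of cases in replicate 1, 23.0% in replicate 2 and 22.9% in replicate 3, against a background of 48.2%, 22.2% and 21.7% for all 3′UTR peaks. In replicate 1, 58.3% of the peaks in the first 500 nt recurred in this way and 52.2% of those in the last 500 nt. Replicates 2 and 3 shared 68.0% and 67.9% of their interior peaks with each other. A peak of replicate 1 met 29.4% and 28.4% of their interior peaks.

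The common regions were unevenly spread over genes. A single region was found in 65 genes, at least 5 in 87 and at least 10 in 29. The 20 leading genes held 327 regions, or 27.9%. The genes named next were ranked by these regions, so their values are given as a description, with no test.

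Lnpep, which codes for the insulin-regulated aminopeptidase, led with 31 regions in an interior of 7339 nt (3′UTR at chr17:17521410-17529748, minus strand). It had 65 interior peaks in replicate 1, 65 in replicate 2 and 63 in replicate 3, with 2, 0 and 1 on the opposite strand. Its interior was covered nearly as much in replicate 1 (65.7%) as in replicate 2 (77.2%) and replicate 3 (85.3%). The order of genes rests on replicate 1, without which Lnpep had 29 regions, against 40 in Ago2 and 36 in Pou2f1.

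Slc5a3 followed with 24 regions and 37, 58 and 64 peaks. Its 3′UTR spans chr16:92079214-92087473 on the plus strand, 8260 nt in 1 exon, and the interior was covered to 46.7%, 66.0% and 78.0%. Here replicate 1 had fewer peaks than the other libraries.

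Ago2 came next, with 20 regions and 26, 97 and 78 peaks in its interior of 10064 nt (3′UTR at chr15:73095844-73106907, minus strand, 11064 nt). Peaks covered 24.2% of the interior in replicate 1, 84.4% in replicate 2 and 78.5% in replicate 3. In replicates 2 and 3 they merged into long blocks, and without replicate 1 the gene had 40 stretches covered in both of them. The let-7 and miR-148 sites printed above lie in regions of 82 and 70 nt.

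**Figure D2:**
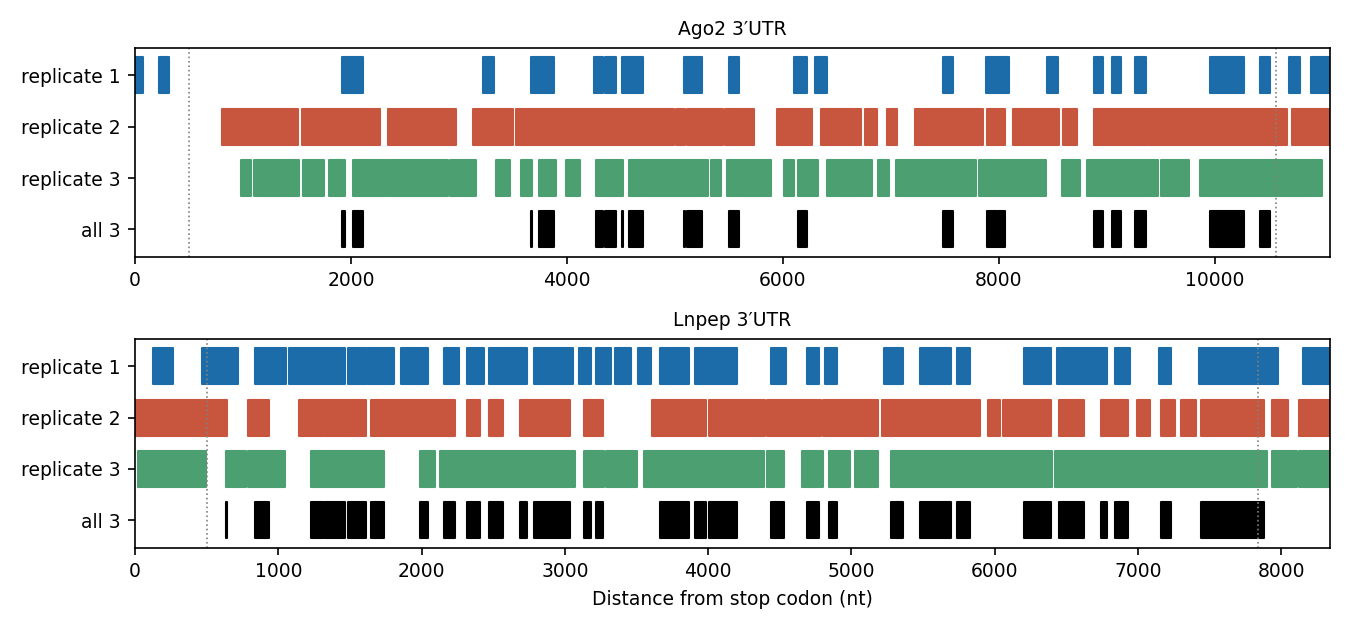
Stretches covered by peaks in each library (colored rows) and common regions (black row) along the 3′UTRs of Ago2 and Lnpep, by distance from the stop codon in nt; dotted lines mark 500 nt from each end. In Ago2, replicate 1 covers 24.2% of the interior and replicates 2 and 3 cover 84.4% and 78.5%, whereas in Lnpep all 3 cover at least 65.7%.

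Cbx5, which codes for the heterochromatin protein HP1 alpha, had 19 regions, 3 of them within 500 nt upstream of an internal annotated end, and 33, 65 and 70 peaks. Tmem33, an endoplasmic reticulum membrane protein, had 18 regions in an interior of only 4236 nt, at 4.25 regions per kb against 4.22 in Lnpep. Tnpo1, the nuclear import receptor transportin 1, had 17 regions and 24, 34 and 33 peaks.

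Uhmk1, a kinase with a U2AF homology motif, and Mob1b, a Hippo pathway scaffold, also had 17 regions each. In Mob1b 5 of the 17 lay upstream of an internal end, the most among the genes named here. Pank3, a pantothenate kinase of coenzyme A synthesis, had 22, 26 and 24 peaks, and its interior was covered to 38.0% in replicate 1 but to 97.3% and 98.0% in replicates 2 and 3, in which little of it was left free.

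Bmpr2, a receptor for bone morphogenetic proteins, had 16 regions with 20, 52 and 46 peaks. Mib1, a ubiquitin ligase that acts on Notch ligands, had 16 with 14, 52 and 51. Nfat5, the transcription factor of the response to high salt, had 15 with 17, 68 and 63. In all of these, replicate 1 was well below the other libraries, as it was for the interiors as a whole.

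Unc5c, a netrin receptor in axon guidance, had 14 regions with 24, 26 and 42 peaks. Igf1r, the receptor of insulin-like growth factor 1, Pou2f1 (the transcription factor Oct-1), Ptar1 and Zfp871 had 13 each. Tnks, the poly-ADP-ribose polymerase tankyrase, and Alg10b had 12, and Sp1, a transcription factor of GC-rich promoters, had 11, with 3 upstream of an internal end. Across the 20 genes the peaks ranged from 11 to 65 in replicate 1, from 26 to 97 in replicate 2 and from 24 to 78 in replicate 3.

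**Figure D3:**
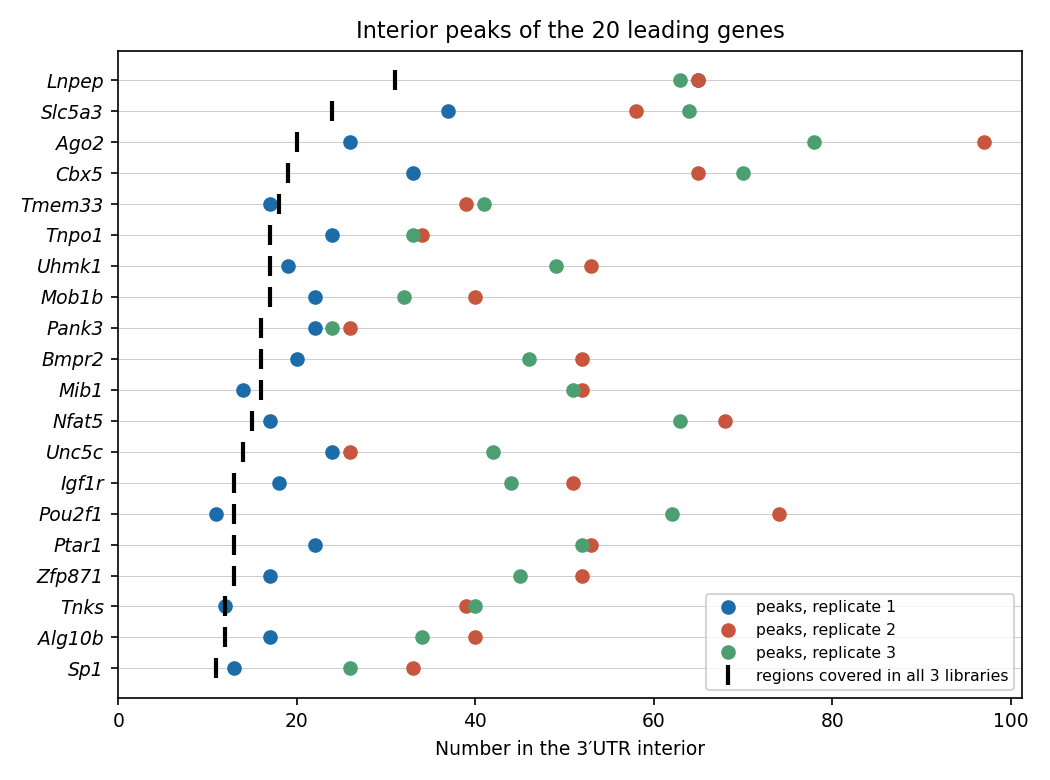
Interior peaks in each library (points) and common regions (black bars) for the 20 genes with the most common regions, on a linear axis from 0. Replicate 1 lies to the left of both other libraries in 19 of the 20 genes, and in Lnpep the 3 libraries meet at 63 to 65 peaks.

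Gene lists were read against the 32.9% of all 796 genes that held a common region. That share includes the olfactory and vomeronasal receptor genes, which held none. The lists were drawn up with earlier results of these data known, so their shares are not independent results. They are also partial, and Mib1, Pou2f1, Sp1 and Cbx5, named above, are on none of them. Of the list of miRNA effectors and RNA-binding proteins, 18 had a 3′UTR of at least 5000 nt and 14 of these (77.8%) held a region, with a median of 5 regions against 0 over all 796. Besides Ago2 these were Ago3 and Tnrc6b, which act in miRNA silencing, the deadenylase subunit Cnot6l (9 regions, with 12, 44 and 41 peaks) and the translational regulator Msi2 (9 regions, with 7, 27 and 34 peaks). Others were Rc3h1, Rc3h2, Celf1, Nova2, Rbfox2, Trim71, Syncrip, Qk and Rbms3. Celf2, Igf2bp1, Nova1 and Tardbp held none.

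Of 17 listed transcription and chromatin regulators, 10 (58.8%) held a region. Nfib, a factor of neural and glial development, had 10 regions with 9, 53 and 52 peaks, and Tcf4, a neuronal helix-loop-helix factor, had 9 with 14, 34 and 34. Zbtb20 had as many as 38, 97 and 75 peaks but only 6 regions in a 3′UTR of 23858 nt, which is 0.262 per kb of its interior.

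Of 12 genes of growth factor signalling and the cell cycle, 7 (58.3%) held a region, among them Bmpr2, Igf1r and Smad2, which carries signals of the TGF-beta receptors (4 regions, or 22 without replicate 1, with 7, 38 and 45 peaks). Of 7 listed ubiquitin ligases and proteases, 4 (57.1%) did. These were Ube3a, the ligase lost in Angelman syndrome (11 regions, with 18, 48 and 32 peaks), Usp31 (7 regions), the p53 regulator Mdm4 (5 regions, with 6, 20 and 17 peaks) and Cbl.

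Of 14 listed genes of synapse and excitability, 2 (14.3%) held a region. These 2 were App, the amyloid precursor protein, with 5, 2 and 6 peaks, and the calcium channel Cacna1c, with 3, 7 and 4 peaks. In both genes each of the 2 regions lay within 500 nt upstream of an internal annotated end. With peaks of 86 to 200 nt both genes had 0 regions. The glutamate receptor gene Grin2b, with a 3′UTR of 18865 nt, had 6, 3 and 0 peaks, which is little more than the 4, 0 and 3 on its opposite strand. Of 7 listed genes of axon guidance and cell adhesion, only Unc5c held a region. Unlisted genes of these kinds were not counted, though some, such as Sv2c, Dlg4, Ephb2 and Itga4, held regions. An interior peak in each library, region or not, was found in 451 of all 796 genes, and in 17 of 18, 16 of 17, 10 of 12, 5 of 7, 4 of 14 and 3 of 7 genes of the lists in the order given here. The lists are small and were described by their counts alone.

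**Figure D4:**
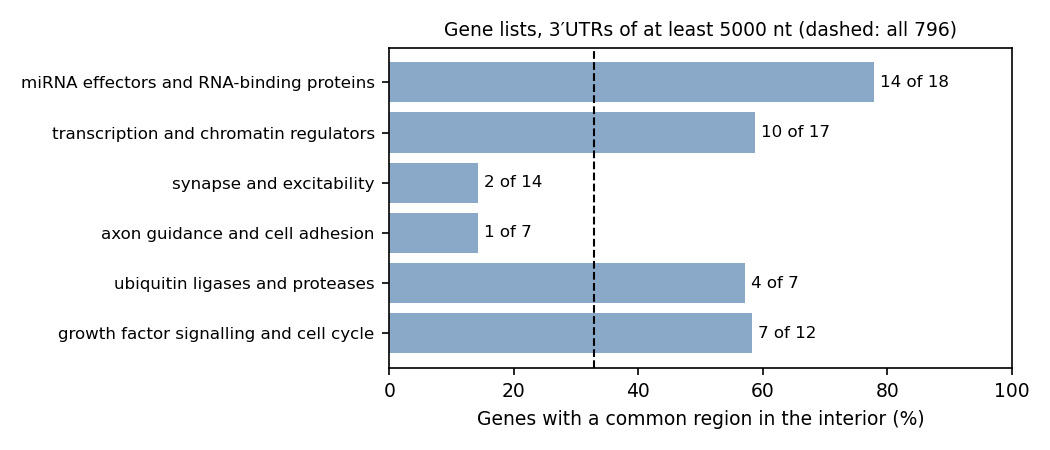
Share of genes with at least 1 common region in the interior, in percent, for 6 gene lists (bars, with the numbers of genes beside them) and for all 796 genes with a 3′UTR of at least 5000 nt (dashed line, 32.9%). The highest bar is that of the miRNA effectors and RNA-binding proteins at 77.8%. The lowest are synapse and excitability and axon guidance and cell adhesion at 14.3%. The lists are partial and were drawn up with earlier results of these data known.

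The covered nucleotides were richer in A and T than the uncovered ones, each taken over all interiors together. Interiors without any peak in a library counted as uncovered, so differences between genes enter these values too. The A+T content was 61.0%, 60.1% and 60.6% where covered and 58.1%, 57.9% and 57.8% elsewhere. The difference was 2.65 ± 0.37 percentage points (SD, n = 3, exact p = 0.25), larger than the spread between libraries and above 0 in each. Repeat-masked sequence made up 19.5%, 16.9% and 16.9% of covered and 23.5%, 24.5% and 24.4% of uncovered nucleotides.

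A set of short motifs was searched on the mRNA strand of the 1174 common regions and compared with the mean share over all windows of the same lengths in the same interiors. The polyadenylation signal AATAAA was held by 79 regions (6.73%, Wilson 95% interval 5.43 to 8.31) against 3.93%, and its variant ATTAAA by 70 (5.96%) against 3.82%. These were 1.71 and 1.56 times the share in the windows. In the genes with internal annotated ends, 29 regions held AATAAA, and 9 of these lay within 500 nt upstream of such an end. Of all 474 common regions in these genes, 73 (15.4%) lay in these windows, which make up 8.88% of the interior nucleotides.

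TGTANATA, the element bound by Pumilio proteins, was held by 36 regions (3.07%, Wilson 95% interval 2.22 to 4.22) against 1.67%, or 1.83 times the share in the windows. When 30 nt were cut from both edges of every peak, the ratio was 3.18, but with peaks of 86 to 200 nt it was 1.34, with 3′UTRs of at least 8000 nt 1.45 and with equal numbers of peaks drawn 1.49. The AU-rich pentamer ATTTA was at 1.36 and a run of 7 T at 1.34 times, but with trimmed peaks these were 1.01 and 0.416, so the direction for the T run turned. A few of these motifs can overlap each other and all of them are rich in A and T, as the covered sequence was.

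The 4 shortest common regions with the Pumilio element, 1 per gene, were picked after the values were seen, and show the element in capitals within 30 nt.
Ppp1r9a: ttgaaaatgaaTGTATATAttggaaatgtc
Slc38a1: cttcctttgtaTGTAAATAtgttgtaaata
Usp15: aaattgtgtatTGTAAATAaaagttcactc
Creb1: tcataggaatcTGTACATAtgctactgatt

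In Slc38a1 the window ends with another match, left in lower case. In Usp15 the element overlaps an AATAAA. That region, the only one in the gene, lies within 500 nt upstream of an internal annotated end. The one in Ppp1r9a, a neuronal actin-binding scaffold, lies at chr6:5161905-5161912 on the plus strand, 2152 nt after the stop codon. Slc38a1 codes for a glutamine transporter, Usp15 for a deubiquitinase and Creb1 for the cAMP-responsive transcription factor, whose element lies at chr1:64599759-64599766 on the plus strand.

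Seed matches were then read within a fit over all short words. For each of 10731 7-mers, the density in covered interior sequence was divided by that in the uncovered rest of the same interiors, on the log2 scale with a pseudocount of 0.5, and centred on 7-mers with the same number of A and T. No 7-mer passed limma's test at an adjusted p under 0.05 (0.0% called, lowest adjusted p 0.0936), while 895 were higher (8.34%) and 997 lower at an unadjusted p under 0.05. Above 0 in all 3 libraries were 2126, or 19.8%. The lack of calls held under some other settings but not all, with 73 higher and 56 lower at a pseudocount of 5. The rest are given under processing.

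Of 41 miRNA families tested, none was called, but their matches lay mostly on one side. The mean was above 0 for 36 of them. Their median was 0.18, where the centring puts that of all 7-mers at 0 in each library. In 22 (53.7%) the value was above 0 in all 3 libraries, against the 19.8% of all 7-mers, and 15 (36.6%) were higher at an unadjusted p under 0.05, against 8.34%, with 0 lower. By class these 22 were 17 of 29 broadly expressed or other families, 5 of 8 neural ones, 0 of 3 known from blood cells and 0 of 1 from pancreas.

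The match of miR-130, TTGCACT, had the highest mean among the tested families, with log2 values of 0.65, 1.04 and 0.18 and a mean of 0.62 (limma, adjusted p 0.113). That of miR-148 was at 0.64, 0.75 and 0.41, with a mean of 0.6 (limma, adjusted p 0.0987). The libraries differed widely for the first and less for the second. With a library left out, the miR-130 match was at 0.6 without replicate 1, 0.41 without replicate 2 and 0.84 without replicate 3 (limma, adjusted p 0.153, 0.492 and 0.00957).

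The match of miR-19 was at 0.59, 0.99 and 0.07, with a mean of 0.55, so replicate 3 was close to 0. It was at 0.52 without replicate 1, 0.33 without replicate 2 and 0.79 without replicate 3 (limma, adjusted p 0.212, 0.564 and 0.022). That of let-7, a family that is abundant in differentiated cells, was at 0.4, 0.76 and 0.44, with a mean of 0.54 (limma, adjusted p 0.103). Both are among the best-studied families in tumor biology, miR-19 as part of the miR-17-92 cluster and let-7 as a repressor of growth genes.

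The miR-17 match was at 0.19, 0.82 and 0.56, that of miR-92 at 0.02, 0.9 and 0.56, that of miR-16 at 0.3, 0.48 and 0.52, and miR-101 at 0.2, 0.57 and 0.44. In replicate 1 the miR-92 match was close to 0. Of the 8 leading matches, 5 share the letters of a GCAC, GTGC or TGCA core, so they are not independent of each other.

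The lowest means were those of miR-216a at −0.22, miR-125 at −0.2, miR-186 at −0.08 and miR-182 at −0.02. For miR-216a the libraries were spread from −0.74 to 0.27 and for miR-125 from −0.45 to −0.02. miR-21, which the study followed in ischemia, was at 0.37, 0.58 and 0.04, with a mean of 0.33 (limma, adjusted p 0.235).

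**Figure D5:**
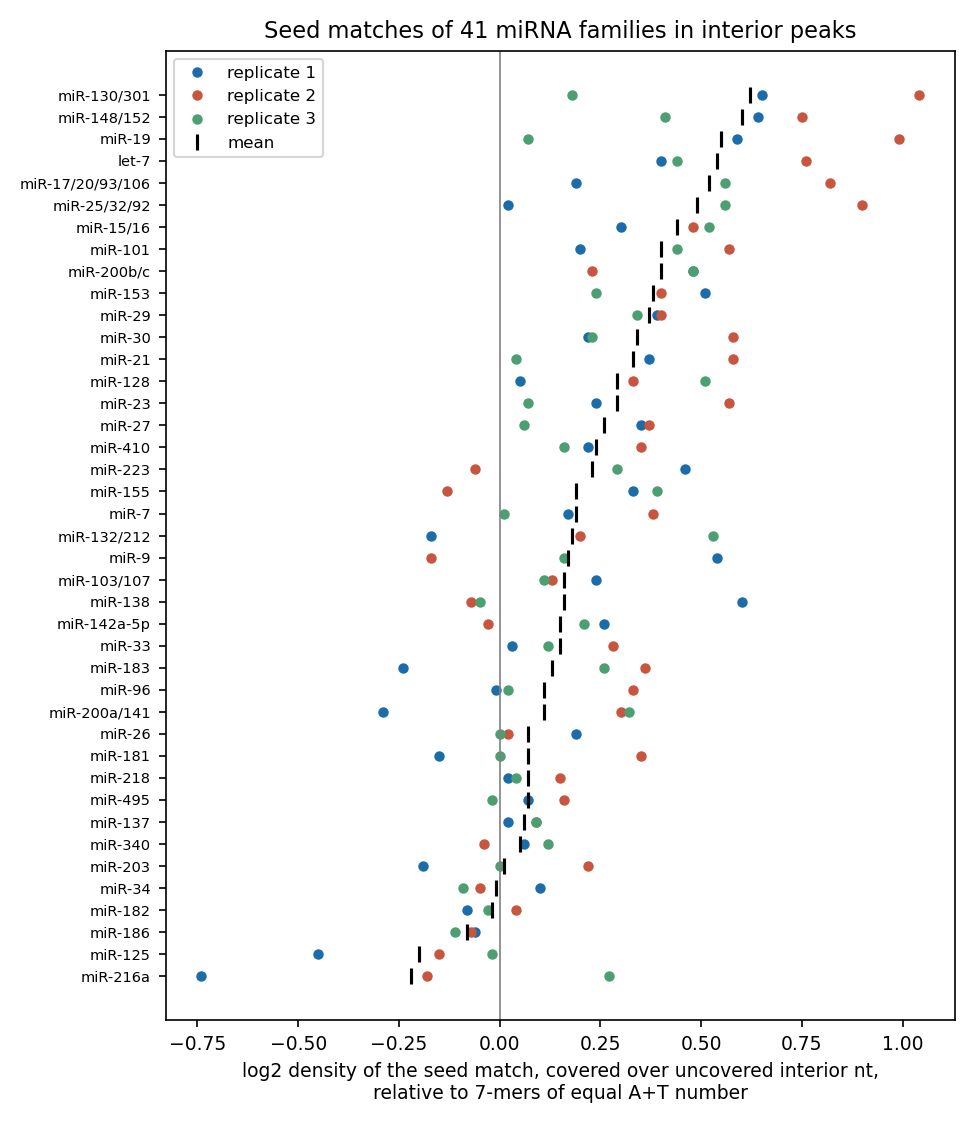
Log2 density of the seed match in covered over uncovered interior nucleotides, relative to 7-mers with the same number of A and T (horizontal axis), for 41 miRNA families ordered by their mean (black bars), with a point for each library. The means run from −0.22 for miR-216a to 0.62 for miR-130, and 22 families have all 3 points above 0.

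Among single words, GTGCCTT had the lowest p of the 10731, though it was not called, with values of 0.84, 0.78 and 0.83 and a mean of 0.81, or 1.76-fold (limma, adjusted p 0.0936). It was found at 42, 102 and 96 covered places. These letters pair with the seed of miR-124, a neuronal miRNA that was not among the 41 tested families and is not in the neural count above. AGATTCA was lower in each library, at −0.69, −0.88 and −0.93.

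In the common regions the signal was weak. The 41 matches were counted 361 times against 332 from all windows of the same lengths, a ratio of 1.09. Of the 41 families, 26 exceeded their own number from such windows.

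Mid-length interiors, which span 9.25 Mb, were fitted in the same way. There 51 of 11678 7-mers were called higher and 41 lower, and the matches of miR-92 (limma, adjusted p 0.00923), miR-130 (0.0247) and miR-17 (0.0443) were called. The difference between long and mid-length interiors was called for 0 of 10731 7-mers (lowest adjusted p 0.299), while 1169 had an unadjusted p under 0.05. For the 3 families named, it was −0.34, −0.11 and −0.16 on the log2 scale, with adjusted p of 0.519, 0.836 and 0.725 by limma.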

How the data were processed

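Ago2 HITS‐clip peaks of 3 libraries from untreated N2A cells were used. The authors deposited a single table of peak intervals for all libraries, with strand, library and a score of unstated meaning that was not used. The tools named are FastQC, cutadapt and STAR on mm10; the peak caller is not given in the sources used here, and intervals appear padded, since some starts lie below 0. Read counts were not used here, so the depth behind a peak is unknown and each count of peaks is a count of intervals.

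Each peak was placed by its midpoint in the longest GENCODE M21 3′UTR per gene, stop codon excluded. Sequences were read from GRCm38 (NCBI), and mature miRNAs from RefSeq; 43 of 48 families had a mature sequence (miR-124 is among those not tested), and 41 had a match frequent enough (10 expected occurrences) to test. Values were computed per library and compared by an exact sign-flip permutation test. limma 3.58.1 (R 4.3.3, lmFit and eBayes, Benjamini-Hochberg) was fitted over all 7-mers after a test on simulated data; the other steps ran in Python 3.11.15 with pandas 2.3.3, numpy 2.4.6 and scipy 1.17.1. Alternatives changed the libraries, peak width and edges, 3′UTR length, margin, number of peaks, overlap, region length, windows, pseudocount, filter and centring.

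Named genes are the 20 with the most common regions and up to 3 per gene list. Called families were to be named too, but none was called, so the 8 with the highest and 4 with the lowest mean are given, with miR-21 and the leading 7-mers added after their values were seen. Members and lists were chosen with earlier results of these data known.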

Additional observations from a re-analysis of the deposited data

How the results depend on the processing

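No alternative turned the direction of a density, strand or A+T comparison with the libraries, widths, lengths and margins tried. Of 169 alternatives over 19 main results, 139 left the value within its spread or within 1.5 times, 29 moved it and 1 reversed it; the cause was not tested. The interior share of 3′UTR peaks was 4.48% with 3′UTRs of at least 8000 nt and 12.8% with a margin of 1000 nt. Recurrence in both other libraries was 30.3% on average; with a library left out it is overlap with the 1 that remains, and was 43.2 to 68.0%.

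The 1174 common regions became 588 with peaks of 86 to 200 nt, 652 with trimmed peaks, 328 with 3′UTRs of at least 8000 nt, 613 with equal numbers of peaks drawn, 4490 when 2 libraries sufficed, and 1562 to 3752 with a library left out, the highest without replicate 1. The 262 genes became 56, 462 and 346 to 409 with the longer 3′UTRs, 2 libraries and a library left out. Of the 30 named genes, 28 kept at least 1 region with the width limit (App and Cacna1c did not), but the number per gene moved: Pank3 went from 16 to 1, Tnpo1 from 17 to 4, Sp1 from 11 to 2 and Msi2 from 9 to 1. Without replicate 1 the number changed by over 1.5 times in most named genes, from 0 in App to 40 in Ago2. A fall here is not a loss of shared positions, since stretches that merge count once and are placed by their midpoint. Pank3 had 5, Tnpo1 6, Sp1 5, Msi2 17 and Zfp871 28. When 2 libraries sufficed, Ago2 (40), Pou2f1 (34), Cbx5 (33) and Zfp871 (33) exceeded Lnpep (25). The motif ratio was 1.2 for ATTAAA with the draw, and with trimmed peaks 3.18 for TGTANATA, 1.01 for ATTTA and 0.416 for the T run.

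The 0 called 7-mers became 1028 higher and 1482 lower without centring on A+T number and 73 and 56 with a pseudocount of 5; with 3′UTRs of at least 8000 nt 3 were lower. With a library left out 0 to 98 were higher and 0 to 37 lower, with 98 and 37 without replicate 1, 10 and 33 without replicate 3 and none without replicate 2. Called seed matches numbered 10 without centring, 1 with the pseudocount and 0 to 2 with a library left out. Depth is unknown, and replicate 1 limits what all libraries share. Comparisons within a library were paired by that library. No paired analysis was possible between groups because all 3 samples belong to the same group.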

Other observations

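Genes of olfactory and vomeronasal receptors, which sensory neurons of the nose use, made up 119 of the 796 genes with very long annotated 3′UTRs, a group looked at after seeing the data. Their interiors, 767 kb in all, held no common region, and 51 of these genes had no interior peak in any library. On the mRNA strand there were 66, 34 and 40 peaks, and on the opposite strand 70, 28 and 45. The densities of 0.0861, 0.0444 and 0.0522 per kb were therefore about those of the opposite strand, far under the 0.598, 1.73 and 1.66 per kb of all long interiors.

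The longest annotated 3′UTR, that of D10Wsu102e at 122583 nt, had 26, 51 and 127 interior peaks, with 13, 9 and 11 on the opposite strand, and held 2 common regions.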
